A study of Homo sapiens with 12 samples.

Results

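The genes that encode the respiratory chain and the ATP synthase were examined in PANC-1, a human cell line grown from a ductal adenocarcinoma of the pancreas. They were chosen by symbol as the nuclear genes of complex I (NDUFA, NDUFB, NDUFC, NDUFS and NDUFV), complex II (SDHA to SDHD), complex III (UQCR), complex IV (COX4 to COX8) and the ATP synthase, complex V (ATP5). The rule itself uses symbols and no measured value. It gave 77 genes of the 13422 with a named feature on the array, with 35 in complex I, 4 in complex II, 6 in complex III, 16 in complex IV and 16 in complex V. Of these, 76 matched by symbol, and the hypoxia isoform NDUFA4L2 was added under its current symbol COXFA4L2. ATP5IF1, an inhibitor of the ATP synthase, and COX7A2L, a factor for supercomplexes of the chain, came in by symbol although neither is a classical subunit. The subunits encoded by mitochondrial DNA, and NDUFS1, UQCRB, UQCR10, ATP5F1E, ATP5MC3, COX6A2 and COX7B2, were not analysed here.

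The study set PANC-1 cells co-cultured with tumor-associated macrophages (TAMs) against PANC-1 cells alone, under hypoxia and under normoxia. The HPM groups were co-cultured under hypoxia, the HPC groups were alone under hypoxia, the NPM groups were co-cultured under normoxia and the NPC groups were alone under normoxia, with 3 arrays each. Co-culture lasted 4 days in a transwell, where a porous membrane keeps the cell types apart. The submitters describe the arrays as coming from independent experiments, but no source used here states what the replicate numbers of the labels mark. Same-numbered arrays of co-culture and of cells alone deviated together, so these arrays were not all independent of each other. The main fits did not use these pairs. No source used here states the oxygen level of the hypoxia groups, all 4 groups are of a single cell line, and the TAM model described in the paper is macrophages derived from the THP-1 monocytic line.

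The respiratory chain passes electrons from NADH (complex I) and succinate (complex II) through complex III to oxygen at complex IV, and the proton gradient that complexes I, III and IV build up drives ATP synthesis by complex V. Core subunits of complex I carry the redox centres or the catalysis, and supernumerary subunits of a complex surround its core and serve assembly and stability. Low oxygen stabilizes hypoxia-inducible factors (HIF), which raise glycolytic genes and are known to exchange a few subunits of complex IV for hypoxia isoforms, COX4I2 for COX4I1 and NDUFA4L2 for NDUFA4.

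The arrays had like distributions, with medians between 9.17 and 9.29 in log2 intensity. The labelled conditions were checked with gene lists. All 15 of 15 hypoxia-induced genes passed as higher under hypoxia averaged over culture, with a median log2 difference of 1.68. The ductal keratins KRT8 and KRT18 lay above at least 96.8% of features in every array, whatever the group. Of 23 macrophage markers listed, 16 had a named feature. Those without one included MRC1 (CD206), PTPRC and CSF1R, so their level could not be judged. Of the 16 macrophage markers, 15 were never above 56.5% of features in any array, among them CD14 (24.8% at most) and TYROBP (33.4% at most). The exception was CD68, at 82.9% to 91.2%. Among ductal and epithelial markers EPCAM (10% to 41.4%) and CDH1 (14% to 50%) were low. With co-culture averaged over oxygen the 8 ductal and epithelial markers had a median difference of -0.34, with 7 of 8 below 0, and KRT8 passed as lower and MUC1 as higher. The summed macrophage marker level was 12.81 to 12.85 in the HPM groups, 12.28 to 12.38 in the HPC groups, 12.69 to 12.81 in the NPM groups and 12.48 to 12.60 in the NPC groups (log2 of the sum). Such a sum weighs bright features such as CD68 most, and taken gene by gene the list had a median log2 difference of -0.13 with co-culture averaged over oxygen, with 9 of 16 below 0. CD68 and ADGRE1 passed as higher and LCP1 and LYZ as lower with co-culture. The part of macrophage RNA, or of the shift in epithelial markers, in the results on co-culture was not tested. As bulk RNA was measured, a smaller share of cells that express a gene and less of its RNA per cell cannot be told apart.

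The subunits as a whole stood highest in the NPC groups and lowest in the HPM groups. After each gene was centred on its mean over the 12 arrays, the median of the 77 genes was -0.20, -0.20 and -0.19 in the HPM arrays, -0.01, 0.12 and 0.01 in the HPC arrays, -0.10, -0.04 and -0.03 in the NPM arrays and 0.20, 0.40 and 0.25 in the NPC arrays. The 3 HPM arrays were below the other 9 arrays, and the 3 NPC arrays were above the other 9. Medians over all features lay between -0.01 and 0.08 in the same arrays. In complex IV the medians were 0.15, 0.17 and 0.04 in the HPC arrays and 0.03, 0.16 and 0.13 in the NPC arrays, and these groups overlapped.

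**Figure D1:**
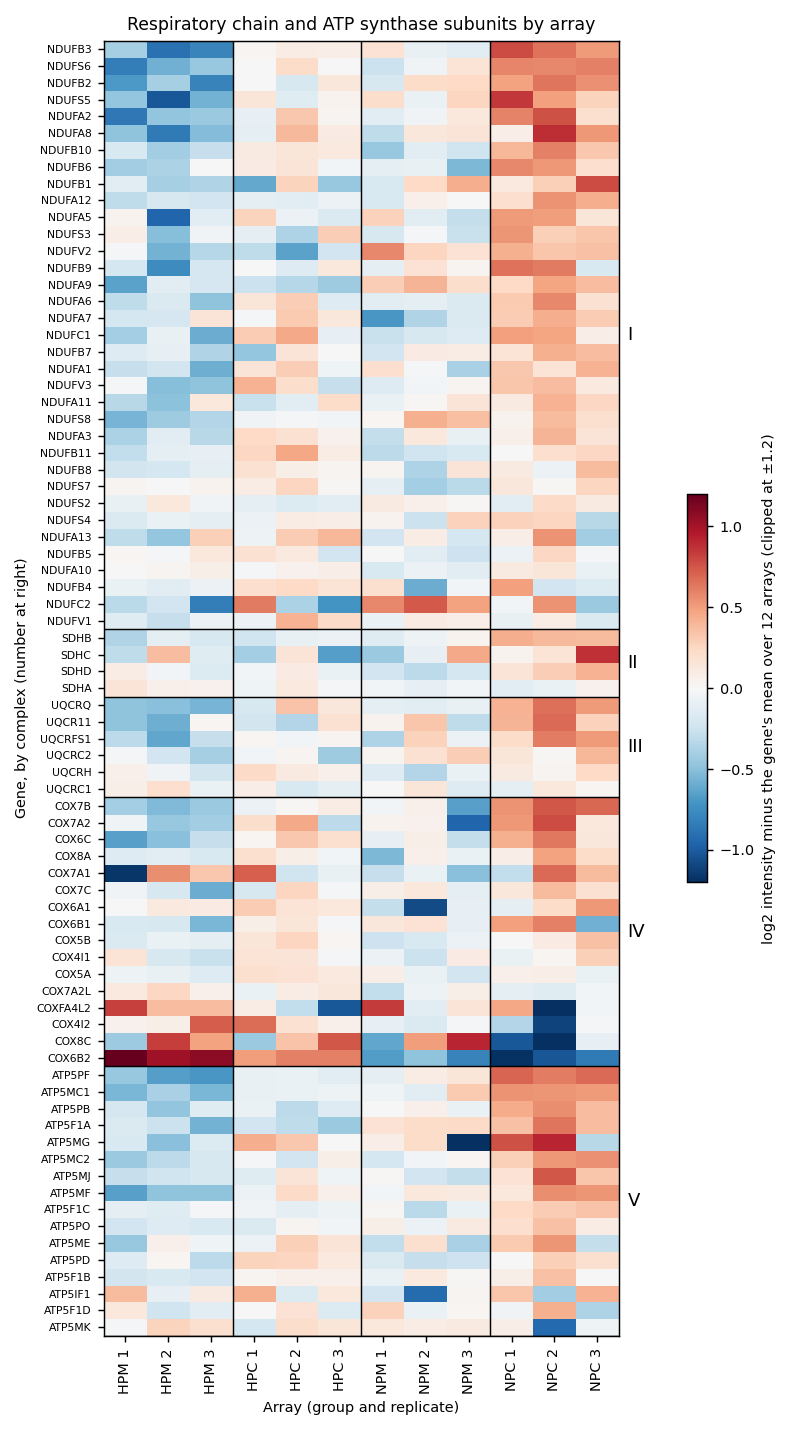
Gene-centred log2 intensity of the 77 genes (rows, by complex, ordered within a complex by their mean in the NPC groups) in each of the 12 arrays (columns). The NPC columns hold mostly values above a gene's mean and the HPM columns mostly values below it, while COX6B2 runs the other way.

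**Figure D2:**
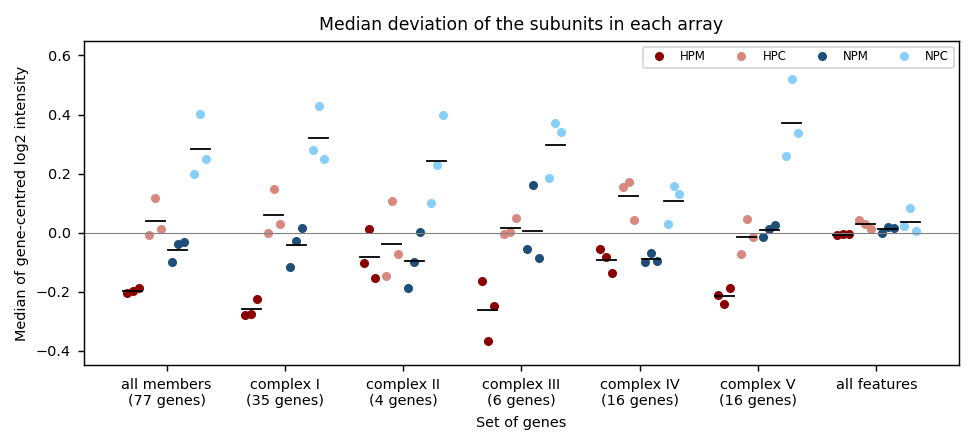
Median gene-centred log2 intensity of all 77 genes, of each complex and of all features, with a point for each array and a line at the mean of the 3 arrays of a group. The NPC arrays lie at 0.20 to 0.40 for all 77 genes and the HPM arrays at -0.20 to -0.19.

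The first question was how oxygen changed these genes. Averaged over both culture conditions, 18 subunit genes were lower and 1 was higher under hypoxia, namely COX6B2, an isoform of the COX6B subunit of complex IV known from testis. The genes that fell were 9 of complex I, 6 of complex V and 1 each of complexes II, III and IV, and they fell by 0.35 to 0.71 on the log2 scale. Thus 23.4% of the subunit genes passed as lower, where 11.6% of all 34487 features did, and 1.3% passed as higher, where 9.74% of all features did (limma, Benjamini-Hochberg adjusted p under 0.05, all 12 arrays). Among the 5322 named features at least as bright as the lower quartile of the subunit genes, 17.4% passed as lower. The median log2 difference was -0.19 over the 77 genes and 0.00 over all features, and 54 of 77 differences were below 0. The 58 genes that did not pass lay between -0.62 (NDUFC2) and 0.59 (COX4I2).

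Within each culture condition the calls were few, with medians over the 77 genes of -0.22 in HPC vs NPC and -0.16 in HPM vs NPM. HPC vs NPC gave 1 subunit gene that passed as higher and 0 that passed as lower, where 0.139% and 0.0174% of all features passed. An unadjusted p under 0.05 was reached by 3 genes with higher and 17 genes with lower values in HPC cells (8.92% and 8.9% of all features), and limma with trend and robust settings called 11 genes, the methods' t-test 2. HPM vs NPM gave 1 gene that passed as higher and 4 that passed as lower, where 4.65% and 5.79% of all features did. The 4 are NDUFS8, NDUFC2, ATP5PF and ATP5MF. Leaving out any 1 of the HPC or NPC arrays left 0 calls in HPC vs NPC, and leaving out any 1 of the HPM or NPM arrays left only COX6B2 in HPM vs NPM. Subunit genes with all 3 hypoxic arrays below all 3 normoxic arrays numbered 25 in HPC vs NPC (32.5%, against 13.5% of all features) and 22 in HPM vs NPM (28.6%, against 18.2%). Over all 12 arrays, NDUFA9, NDUFS8, NDUFV2 and ATP5F1A had every hypoxic array below every normoxic array (5.19%, against 3.98% of all features), and COX4I2 and COX6B2 had every hypoxic array above (2.6%, against 4.09%). These shares over all 12 arrays were near those of all features.

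**Figure D3:**
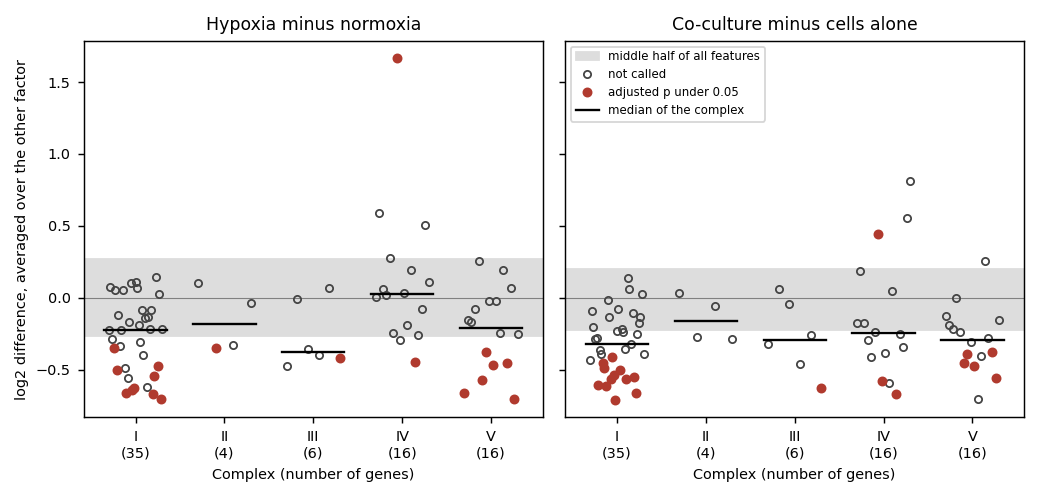
Log2 differences of the 77 genes by complex, for hypoxia minus normoxia averaged over culture (left) and co-culture minus cells alone averaged over oxygen (right). Filled points passed at an adjusted p under 0.05, the line is the median of the complex and the grey band runs between the quartiles of all features. COX6B2 is the filled point above 0 on either side, and the other filled points lie between -0.35 and -0.71.

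In complex I, 2 of 6 core and 7 of 29 supernumerary genes passed as lower under hypoxia. NDUFV2, an iron-sulfur core subunit of the NADH-binding module, measured 11.42, 10.87 and 11.10 in HPM, 11.13, 10.80 and 11.21 in HPC, 12.02, 11.70 and 11.62 in NPM and 11.87, 11.77 and 11.79 in NPC (log2 intensity). All 6 hypoxic arrays lay below all 6 normoxic arrays. The averaged log2 difference was -0.71 ± 0.13 (SE, adjusted p = 0.0033). NDUFA9, a supernumerary subunit that binds a nucleotide cofactor at the junction of the arms, measured 9.47, 10.00 and 9.92 in HPM, 9.86, 9.77 and 9.70 in HPC, 10.41, 10.53 and 10.33 in NPM and 10.36, 10.60 and 10.49 in NPC. Here too the hypoxic and normoxic arrays did not overlap, with a log2 difference of -0.67 ± 0.11 (adjusted p = 0.0023). NDUFS8, an iron-sulfur core subunit near the ubiquinone site, had 11.54, 11.68 and 11.75 in HPM, 12.07, 12.08 and 12.07 in HPC, 12.12, 12.53 and 12.47 in NPM and 12.15, 12.48 and 12.30 in NPC. Its difference was -0.71 ± 0.17 in HPM vs NPM (adjusted p = 0.0465) and -0.24 ± 0.16 in HPC vs NPC (adjusted p = 0.478), and these were not shown to differ (interaction, adjusted p = 0.424).

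Other complex I genes that passed were supernumerary. NDUFS5 (-0.67), NDUFB2 (-0.65), NDUFB3 (-0.63), NDUFS6 (-0.54), NDUFA2 (-0.51) and NDUFA12 (-0.35) had adjusted p values between 0.00333 and 0.0225 and are described with co-culture, where all but NDUFA12 passed as well. NDUFC2, a membrane-arm subunit, had 6.75, 6.85 and 6.25 in HPM and 7.65, 7.81 and 7.56 in NPM, a difference of -1.06 ± 0.20 (adjusted p = 0.0272). Its feature was dim, above 4.48% to 27.1% of features. In HPC the gene had 7.70, 6.70 and 6.36 and in NPC 7.04, 7.62 and 6.63, which overlapped, and the averaged difference of -0.62 did not pass (adjusted p = 0.0955).

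In complex II, the gene of the iron-sulfur subunit, SDHB, passed as lower under hypoxia. It measured 12.26, 12.52 and 12.43 in HPM, 12.38, 12.54 and 12.56 in HPC, 12.48, 12.56 and 12.66 in NPM and 13.06, 13.01 and 13.01 in NPC. The 3 NPC arrays stood above the other 9, and the averaged difference was -0.35 ± 0.09 (adjusted p = 0.0185). The flavoprotein gene SDHA ranged only from 12.67 to 12.95 over the 12 arrays, with a difference of 0.10 ± 0.08 (adjusted p = 0.436). The membrane anchors SDHC (-0.33, adjusted p = 0.332, above only 15.4% to 42.1% of features) and SDHD (-0.04, adjusted p = 0.812) did not pass.

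In complex III, UQCRQ, a small supernumerary subunit, passed as lower (-0.42 ± 0.11, adjusted p = 0.0173). UQCRFS1, the Rieske iron-sulfur protein, and the core subunit UQCRC2 gave -0.40 and -0.36 without passing (adjusted p = 0.0534 and 0.0625), and UQCRC1, the other core subunit, gave -0.01 (adjusted p = 0.972). The median of the 6 genes was -0.38.

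Complex IV held the gene that rose and 1 that fell. Its median difference was 0.03 over 16 genes, and the only gene that passed as lower was COX7B, a supernumerary subunit, at -0.45 ± 0.13 (adjusted p = 0.0288). COX6B2 measured 10.18, 10.00 and 10.06 in HPM, 9.49, 9.59 and 9.59 in HPC, 8.32, 8.50 and 8.18 in NPM and 7.80, 7.96 and 8.14 in NPC. All 6 hypoxic arrays exceeded all 6 normoxic arrays by more than the spread of any group. The normoxic signal was low, above 26.9% to 38.5% of features, against 53.9% to 65.6% under hypoxia, and with no measure of background the folds rest on dim values. The log2 difference was 1.59 ± 0.16 in HPC vs NPC (3.01-fold, adjusted p = 0.0377), 1.75 ± 0.15 in HPM vs NPM (3.35-fold, adjusted p = 0.0069) and 1.67 ± 0.10 on average (3.18-fold, adjusted p = 1.04e-05). Its averaged difference passed under every alternative tried (adjusted p between 6.11e-07 and 0.00364), whereas the call in HPC vs NPC was lost without any 1 of the 6 arrays (adjusted p between 0.0872 and 0.275). COX6B1, the widely expressed isoform, had 12.77, 12.76 and 12.40 in HPM, 13.02, 13.10 and 12.93 in HPC, 13.09, 13.13 and 12.86 in NPM and 13.44, 13.55 and 12.38 in NPC. Its HPC and NPC arrays overlapped, its HPM arrays lay below its NPM arrays, and the averaged difference was -0.24 ± 0.19 (adjusted p = 0.409).

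The promoters of this isoform pair are shown because COX6B2 passed as higher under hypoxia and COX6B1 did not; the difference between the isoforms was not tested. They are RefSeq windows on GRCh38.p14, from 250 bases before to 50 bases after the start site, read 5′ to 3′ on the gene's strand. COX6B2 is on the minus strand (chr19:55354670-55354969) and COX6B1 on the plus strand (chr19:35648073-35648372), and capitals mark the core of the hypoxia response element, searched as ACGTG and GCGTG on both strands.
COX6B2: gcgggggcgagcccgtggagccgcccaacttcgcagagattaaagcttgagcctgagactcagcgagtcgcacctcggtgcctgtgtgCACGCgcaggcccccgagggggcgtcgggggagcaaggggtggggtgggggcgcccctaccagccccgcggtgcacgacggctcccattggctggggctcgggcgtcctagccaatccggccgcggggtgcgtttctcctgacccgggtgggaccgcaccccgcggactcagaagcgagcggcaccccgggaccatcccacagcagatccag
COX6B1: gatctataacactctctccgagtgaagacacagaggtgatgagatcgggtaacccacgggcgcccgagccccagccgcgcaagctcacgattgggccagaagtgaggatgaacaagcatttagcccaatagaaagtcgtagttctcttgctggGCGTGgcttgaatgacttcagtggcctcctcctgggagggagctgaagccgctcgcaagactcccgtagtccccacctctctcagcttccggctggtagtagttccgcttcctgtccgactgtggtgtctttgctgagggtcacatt
Each window held 1 match to GCGTG, which starts 162 bases before the start site in COX6B2, on the opposite strand, and 97 bases before it in COX6B1, and none to ACGTG. These cores are short. GCGTG stood in 36.3% of the 27305 promoter windows and in 33 of the 65 windows found for the subunit genes, and ACGTG in 21.6% of all windows and in 16 of the 65, so a match is no more than a description.

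The other isoforms of complex IV were less clear. COX4I2, the hypoxia isoform, had 8.88, 8.89 and 9.55 in HPM, 9.49, 9.01 and 8.88 in HPC, 8.72, 8.65 and 8.81 in NPM and 8.47, 7.71 and 8.80 in NPC. All 6 hypoxic arrays exceeded the 6 normoxic arrays, but the averaged difference of 0.59 ± 0.20 did not pass (adjusted p = 0.0618). COX4I1, its widely expressed partner, ranged from 12.82 to 13.25 under hypoxia and from 12.83 to 13.37 under normoxia, with a difference of 0.00 ± 0.12 (adjusted p = 0.994). COXFA4L2 was among the dimmest features, never above 14.95% of them, and had 7.00, 6.56 and 6.56 in HPM, 6.28, 5.89 and 5.17 in HPC, 7.02, 6.06 and 6.34 in NPM and 6.65, 4.56 and 6.16 in NPC, which overlapped between oxygen levels (0.11 ± 0.34, adjusted p = 0.856). At this signal a change of the isoform could not be judged.

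Of the partners of COXFA4L2, which are no symbol matches and were added after the annotation was seen, COXFA4 (formerly NDUFA4) gave -0.23 (adjusted p = 0.194). Both features of COXFA4L3, a further paralogue, passed as lower under hypoxia (-0.91, adjusted p = 0.00103, and -0.96, adjusted p = 0.00154). COX8C (0.51, adjusted p = 0.332) and COX7A1 (0.03, adjusted p = 0.958), isoforms known from testis and muscle, were dim and did not pass. The widely expressed COX6A1 (0.28, adjusted p = 0.291), COX7A2 (-0.19, adjusted p = 0.585) and COX8A (-0.08, adjusted p = 0.697) and the factor COX7A2L (0.19, adjusted p = 0.194) did not pass either.

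**Figure D4:**
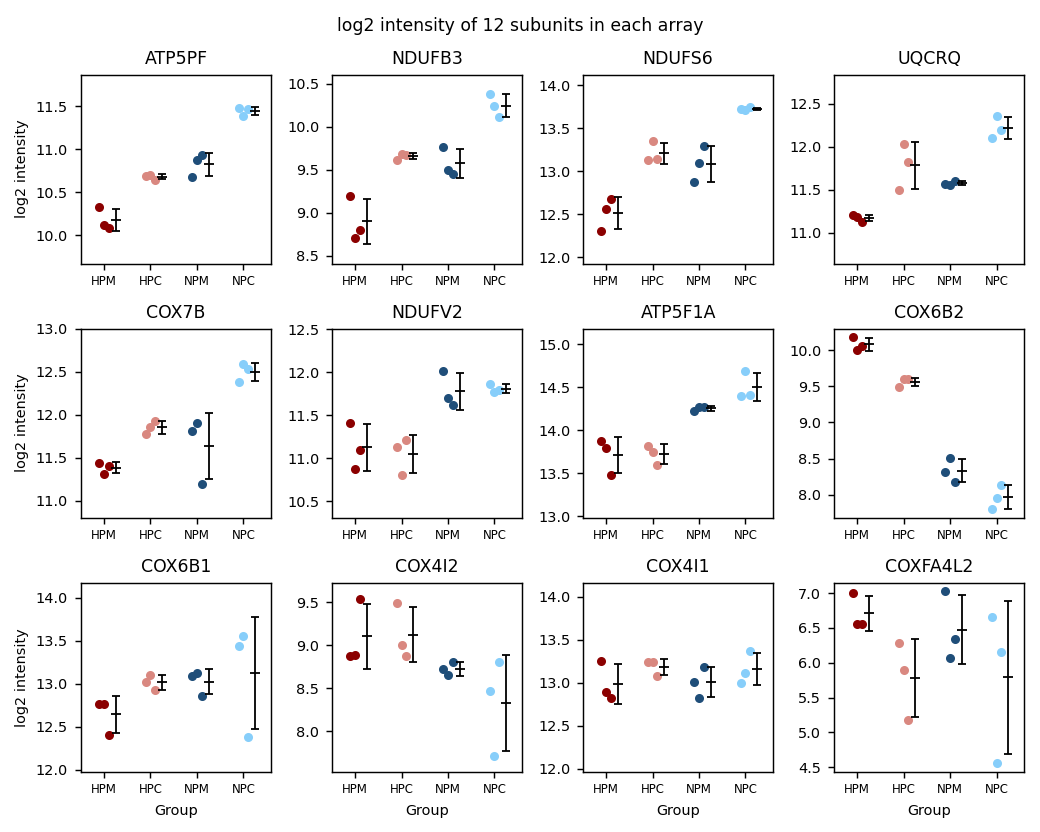
Log2 intensity of 12 genes in each array, with points for arrays and a bar for the mean ± SD of the 3 arrays of a group. Each panel has its own axis range, so levels compare between groups of a gene and not between genes. COX6B2 is highest in HPM, and ATP5PF and NDUFB3 are highest in NPC and lowest in HPM.

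In complex V, 6 of 16 genes passed as lower under hypoxia and 0 as higher. ATP5F1A, the alpha subunit of the F1 head, measured 13.87, 13.79 and 13.48 in HPM, 13.82, 13.75 and 13.60 in HPC, 14.22, 14.27 and 14.28 in NPM and 14.40, 14.69 and 14.42 in NPC. Hypoxic and normoxic arrays did not overlap, and the averaged difference was -0.66 ± 0.10 (adjusted p = 0.00165). ATP5PF, a subunit of the peripheral stalk, measured 10.32, 10.12 and 10.08 in HPM, 10.69, 10.70 and 10.64 in HPC, 10.67, 10.87 and 10.93 in NPM and 11.48, 11.39 and 11.46 in NPC. Its HPC and NPM arrays overlapped between the NPC arrays above and the HPM arrays below, with differences of -0.77 ± 0.14 in HPC vs NPC (adjusted p = 0.0858), -0.65 ± 0.15 in HPM vs NPM (adjusted p = 0.0467) and -0.71 ± 0.09 on average (adjusted p = 0.000531). ATP5MC1 and ATP5MC2, which encode the proton-carrying c subunit, gave -0.57 (adjusted p = 0.0026) and -0.38 (adjusted p = 0.0236), the peripheral stalk gene ATP5PB -0.45 (adjusted p = 0.00787) and the membrane subunit gene ATP5MF -0.47 (adjusted p = 0.0116). The inhibitor gene ATP5IF1 did not pass (0.26, adjusted p = 0.425).

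Several ATP synthase genes had more than 1 feature. All 4 features of ATP5MF and both of ATP5MC1 passed as lower under hypoxia. Of the 4 features of ATP5PF, 3 passed, and the other gave -0.54 (adjusted p = 0.0811). The second feature of ATP5MC2 ran the other way without passing (0.29, adjusted p = 0.354). That of ATP5IF1 also had the opposite sign to the feature used and did not pass (-0.28, adjusted p = 0.107).

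The second question was what co-culture with TAMs changed. Averaged over oxygen, 20 subunit genes were lower and 1 was higher in co-culture, again COX6B2. The genes that fell were 12 of complex I, 5 of complex V, 2 of complex IV and 1 of complex III, by 0.38 to 0.71 on the log2 scale, and all 12 of complex I were supernumerary, against 0 of 6 core genes (the difference between these shares was not tested). Thus 26% of the subunit genes passed as lower, where 5.74% of all features and 9.41% of the bright named features did, and 1.3% passed as higher, where 2.93% of all features did (limma, all 12 arrays). The median log2 difference was -0.28, against -0.01 over all features, and 66 of 77 differences were below 0. The epithelial markers had the median of -0.34 given above, with KRT8 passing as lower and MUC1 as higher. Any link between their shift and that of the subunit genes was not tested. The 56 genes that did not pass lay between -0.71 (ATP5MG, a membrane subunit of complex V, adjusted p = 0.21) and 0.81 (COXFA4L2). By complex the median was -0.32 in complex I, -0.17 in II, -0.29 in III, -0.24 in IV and -0.29 in V. The count fell to 11 without NPM array 1, NPC array 2 or HPC array 2, to 12 without HPM array 1 or HPC array 1 and to 13 without NPM array 2. The arrays numbered 3 lay lowest of their group on the second principal component of all features in each of the 4 groups. Without them only NDUFS6 passed (adjusted p = 0.0488), and the median was -0.30. In 3 genes, NDUFB10, NDUFB11 and COX5B, every co-culture array was below every array of cells alone (3.9%, against 2.11% of all features).

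At each oxygen level alone no subunit gene passed, although the medians were -0.35 in NPM vs NPC and -0.26 in HPM vs HPC. NPM vs NPC gave 0 genes in limma, where 0.0087% of all features passed as higher and 0.0145% as lower. At an unadjusted p under 0.05 it gave 25 genes with lower values and 0 with higher values in NPM (8% and 5.65% of all features). The methods' t-test gave 0 after adjustment, and limma gave 4 with all 12 arrays in one fit and 7 with trend and robust settings. HPM vs HPC likewise gave 0 genes, where 0.348% of all features passed as higher and 0.676% as lower. At an unadjusted p under 0.05, 21 genes had lower values and 2 had higher values in HPM (12.5% and 8% of all features), and the other fits called 1 (the methods' t-test), 5 and 8. Genes with all 3 co-culture arrays below all 3 arrays of cells alone numbered 34 of 77 in either comparison (44.2%, against 12.6% of all features in NPM vs NPC and 16.4% in HPM vs HPC).

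The largest fall with co-culture among the genes that passed was that of NDUFB3. This gene, which encodes a membrane-arm subunit of complex I, measured 9.20, 8.70 and 8.80 in HPM against 9.62, 9.69 and 9.67 in HPC, and 9.77, 9.50 and 9.45 in NPM against 10.38, 10.24 and 10.11 in NPC. The co-culture arrays lay below the arrays of cells alone at each oxygen level, with a difference of -0.71 ± 0.11 (adjusted p = 0.00442). NDUFS6, a zinc-binding subunit needed late in assembly, had 12.31, 12.56 and 12.68 in HPM against 13.13, 13.35 and 13.14 in HPC, and 12.88, 13.09 and 13.30 in NPM against 13.72, 13.71 and 13.74 in NPC (-0.67 ± 0.11, adjusted p = 0.00476). Here too the groups did not overlap at either oxygen level.

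Further supernumerary genes of complex I passed as lower with co-culture. NDUFB10 had 11.83, 11.60 and 11.74 in HPM against 12.13, 12.17 and 12.13 in HPC, and 11.56, 11.89 and 11.78 in NPM against 12.42, 12.63 and 12.34 in NPC, so that all 6 co-culture arrays were below all 6 arrays of cells alone. Its difference was -0.57 ± 0.10 (adjusted p = 0.00655), whereas hypoxia gave -0.17 (adjusted p = 0.258). NDUFA2 (-0.61), NDUFA8 (-0.62), NDUFC1 (-0.57), NDUFS5 (-0.55), NDUFB2 (-0.54), NDUFB6 (-0.50), NDUFA7 (-0.49), NDUFA6 (-0.46) and NDUFB11 (-0.41) also passed, with adjusted p values between 0.0196 and 0.0415. Arrays overlapped between NPM and NPC in NDUFA8 and between HPM and HPC in NDUFC1, NDUFB6 and NDUFA7. The calls of NDUFA8 and NDUFC1 were lost when most single arrays were left out (11 of 12 and 9 of 12), and that of NDUFA2 without NPM array 1, NPC array 1 or HPC array 2. The core genes NDUFV2 (0.02 ± 0.13, adjusted p = 0.937) and NDUFS8 (-0.18 ± 0.11, adjusted p = 0.355), which had passed as lower under hypoxia, did not pass here.

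Among the genes that passed in both averaged comparisons, NDUFS5 had 11.31, 10.77 and 11.22 in HPM, 11.93, 11.64 and 11.82 in HPC, 11.99, 11.70 and 12.04 in NPM and 12.62, 12.27 and 12.05 in NPC. The HPM arrays lay below all others, the NPC arrays above all others, by a narrow margin over NPM, and HPC and NPM overlapped. NDUFB2, of the membrane arm, had 10.55, 10.84 and 10.44 in HPM, 11.24, 11.05 and 11.37 in HPC, 11.05, 11.45 and 11.48 in NPM and 11.71, 11.87 and 11.78 in NPC. It showed the same order. NDUFA2, of the NADH-oxidizing arm, had 9.22, 9.60 and 9.63 in HPM, 9.98, 10.40 and 10.11 in HPC, 9.95, 10.04 and 10.20 in NPM and 10.67, 10.84 and 10.27 in NPC. Its HPM arrays were the lowest 3, while NPC array 3 lay within the range of HPC.

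NDUFA7 passed with co-culture and not under hypoxia (0.06, adjusted p = 0.788). It had 9.85, 9.86 and 10.22 in HPM against 10.04, 10.38 and 10.20 in HPC, and 9.37, 9.70 and 9.89 in NPM against 10.37, 10.50 and 10.37 in NPC. The arrays overlapped between HPM and HPC but not between NPM and NPC, where the difference of -0.76 did not pass (adjusted p = 0.167).

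In complexes III and IV, UQCRQ had 11.20, 11.18 and 11.13 in HPM against 11.50, 12.03 and 11.82 in HPC, and 11.57, 11.56 and 11.60 in NPM against 12.11, 12.35 and 12.20 in NPC. The groups did not overlap at either oxygen level (-0.63 ± 0.11, adjusted p = 0.00585). COX7B had 11.44, 11.31 and 11.40 in HPM against 11.78, 11.86 and 11.93 in HPC, and 11.81, 11.91 and 11.20 in NPM against 12.38, 12.59 and 12.53 in NPC (-0.67 ± 0.13, adjusted p = 0.0103). NPM array 3 was the lowest of its group, and the co-culture arrays lay below those of cells alone at both oxygen levels. COX6C, a further supernumerary subunit of complex IV, measured 10.60, 10.75 and 10.97 in HPM against 11.27, 11.58 and 11.44 in HPC, and 11.15, 11.32 and 10.97 in NPM against 11.68, 11.88 and 11.39 in NPC, and it fell by 0.58 (adjusted p = 0.0166). Here again the groups did not overlap at either oxygen level, by a narrow margin in NPM vs NPC.

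COX6B2 was also higher in co-culture, as its values above show for each oxygen level, by 0.44 ± 0.10 on average (1.36-fold, adjusted p = 0.0209). The difference was 0.52 ± 0.13 in HPM vs HPC (adjusted p = 0.103) and 0.37 ± 0.17 in NPM vs NPC (adjusted p = 0.412). The averaged call was lost without NPM array 2, NPC array 1 or HPC array 1 (adjusted p = 0.0515, 0.0539 and 0.0542). COXFA4L2 (0.81, adjusted p = 0.186), COX8C (0.56, adjusted p = 0.364), COX4I2 (0.19, adjusted p = 0.631), COX4I1 (-0.18, adjusted p = 0.407) and COX6B1 (-0.24, adjusted p = 0.503) did not pass. Nor did COX6A1 (-0.41, adjusted p = 0.178), COX7A2 (-0.59, adjusted p = 0.119), COX8A (-0.34, adjusted p = 0.119), COX7A1 (-0.38, adjusted p = 0.499) or COX7A2L (0.05, adjusted p = 0.807).

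In complex V, ATP5PF (-0.56 ± 0.09, adjusted p = 0.00449), ATP5MC1 (-0.45, adjusted p = 0.0191), ATP5MF (-0.47, adjusted p = 0.0237), ATP5MC2 (-0.39, adjusted p = 0.0396) and the stalk gene ATP5PD (-0.38, adjusted p = 0.0376) passed as lower with co-culture. ATP5MC1 had 12.02, 12.18 and 12.02 in HPM, 12.48, 12.49 and 12.51 in HPC, 12.52, 12.44 and 12.88 in NPM and 13.11, 13.10 and 13.08 in NPC. ATP5MF had 11.87, 12.03 and 12.04 in HPM, 12.45, 12.74 and 12.58 in HPC, 12.49, 12.65 and 12.62 in NPM and 12.64, 13.08 and 13.05 in NPC. In both genes the HPM arrays lay below the other 9, while NPC arrays lay above them in ATP5MC1 and overlapped with HPC and NPM in ATP5MF. All 4 features of ATP5MF and both of ATP5MC1 passed. The other 3 features of ATP5PF gave -0.21, -0.38 and -0.12 and did not pass, and with the mean of its features ATP5PF lost its call (adjusted p = 0.121). The second features of ATP5MC2 (0.19, adjusted p = 0.634), ATP5PD (-0.33, adjusted p = 0.0825) and, in complex I, NDUFB6 (-0.37, adjusted p = 0.104) did not pass either. ATP5F1A, which fell under hypoxia, gave -0.13 ± 0.10 with co-culture (adjusted p = 0.501). No gene of complex II passed. SDHB gave -0.27 (adjusted p = 0.0858), SDHD -0.29 (adjusted p = 0.0824), SDHC -0.06 (adjusted p = 0.911) and SDHA 0.03 (adjusted p = 0.849).

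Of ATP5PF, the brightest feature passed as lower in both averaged comparisons, while with co-culture its other features did not pass. The promoter of this gene is shown for the motifs of factors known to act at genes of the respiratory chain. It is the same kind of window (GRCh38.p14, minus strand, chr21:25735005-25735304), and capitals mark an ETS motif (CCGGAAG, which nuclear respiratory factor 2 binds) and a YY1 motif (AAGATGGCG), which start 30 and 57 bases before the start site. Both were searched on both strands.
ATP5PF: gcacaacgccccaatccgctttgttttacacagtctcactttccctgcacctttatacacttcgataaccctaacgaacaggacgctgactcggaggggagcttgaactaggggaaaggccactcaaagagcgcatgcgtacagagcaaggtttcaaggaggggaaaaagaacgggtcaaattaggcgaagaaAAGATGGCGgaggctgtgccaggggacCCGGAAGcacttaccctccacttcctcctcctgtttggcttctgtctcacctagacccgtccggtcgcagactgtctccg
Of the 65 windows found for the subunit genes, 19 held the ETS motif (29.2%, against 10.7% of all windows) and 8 the YY1 motif (12.3%, against 1.85%). Of the genes that passed as lower with co-culture, 17 had a window, and 3 of these held the ETS motif and 3 the YY1 motif. Of the 16 with a window that passed as lower under hypoxia, 3 held the ETS motif and 3 the YY1 motif.

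The last question was whether co-culture acted differently under hypoxia than under normoxia. No subunit gene passed the interaction test (limma over 12 arrays, where 0.174% of all features passed with positive and 0.278% with negative values), and at an unadjusted p under 0.05 there were 2 genes with positive and 1 with negative values (5.09% and 6.35% of all features). The same count of 0 came from limma with trend and robust settings. The smallest p belonged to SDHD, which had 12.61, 12.48 and 12.35 in HPM, 12.48, 12.61 and 12.44 in HPC, 12.28, 12.20 and 12.30 in NPM and 12.67, 12.81 and 12.93 in NPC. Co-culture arrays were below those of cells alone under normoxia only, yet the interaction of 0.51 ± 0.18 did not pass (adjusted p = 0.299). NDUFS8 (-0.48, adjusted p = 0.424), ATP5F1C (0.40, adjusted p = 0.435), NDUFA7 (0.53, adjusted p = 0.447) and SDHB (0.37, adjusted p = 0.465) followed. The median interaction over the 77 genes was 0.08, against -0.02 over all features.

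Genes that build or serve the chain were set beside its subunits. Of 44 assembly factors, 9 passed as lower and 2 as higher under hypoxia, and 11 as lower and 0 as higher with co-culture. Their medians were -0.19 and -0.32. Of all features, 11.6% passed as lower and 9.74% as higher under hypoxia, and 5.74% and 2.93% with co-culture. Of the bright named features, 17.4% passed as lower under hypoxia and 9.41% with co-culture. NDUFAF4, which assembles complex I, gave -1.16 (adjusted p = 0.000259) under hypoxia and -0.76 (adjusted p = 0.00528) with co-culture, and TMEM70, which serves complexes I and V, gave -0.68 (adjusted p = 0.00103) and -0.73 (adjusted p = 0.00179). COA7, a complex IV factor, gave -1.09 under hypoxia (adjusted p = 0.000166), while the copper-related factors COX11 and COX19 rose (0.58, adjusted p = 0.0103, and 0.64, adjusted p = 0.0123). COX16 gave -0.57 (adjusted p = 0.00385) and -0.62 (adjusted p = 0.00631).

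Of 77 mitochondrial ribosomal proteins, which translate the subunits encoded by mitochondrial DNA, 24 passed as lower and 2 as higher under hypoxia. With co-culture 19 passed as lower and 0 as higher. The medians of the 77 were -0.29 and -0.30. Of all features, 11.6% passed as lower and 9.74% as higher under hypoxia, and 5.74% and 2.93% with co-culture. MRPS12 gave -0.80 (adjusted p = 0.000377) and -0.57 (adjusted p = 0.00562), and MRPL20 gave -0.61 (adjusted p = 0.00484) and -0.65 (adjusted p = 0.00849). Of 15 regulators of mitochondrial biogenesis, 5 passed as lower under hypoxia and 1 with co-culture (against 11.6% and 5.74% of all features). The 1 call with co-culture was near the share of all features. TFAM, which packages and transcribes mitochondrial DNA, gave -0.74 (adjusted p = 0.00139) and -0.55 (adjusted p = 0.0146).

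Among 13 carriers and subunits that the symbols did not cover, 2 passed as lower and 2 as higher under hypoxia, and 3 as lower and 1 as higher with co-culture. The share of 15.4% in each direction under hypoxia was near that of all features (11.6% lower and 9.74% higher). With co-culture 5.74% of all features passed as lower and 2.93% as higher. CYCS, cytochrome c, gave -0.79 under hypoxia (adjusted p = 0.0371), and PDSS1, which builds the ubiquinone side chain, gave -0.72 (adjusted p = 0.00312) and, with co-culture, -0.59 (adjusted p = 0.0187). Of 17 genes of the TCA cycle and pyruvate dehydrogenase, 3 passed as lower and 1 as higher under hypoxia (17.6% and 5.88%, against 11.6% and 9.74% of all features), and 2 as lower and 0 as higher with co-culture, where the median was -0.08 and 10 of 17 differences were below 0. DLAT, of the pyruvate dehydrogenase complex, gave -0.67 under hypoxia (adjusted p = 0.00231), and IDH2 gave 0.75 (adjusted p = 0.000964).

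Of 18 glycolytic genes, 10 passed as higher and 0 as lower under hypoxia (against 9.74% and 11.6% of all features). Their median was 0.45. With co-culture 1 passed as higher and 0 as lower (against 2.93% and 5.74% of all features), with a median of 0.00. ENO2 (1.65, adjusted p = 1.93e-05) and HK2 (1.63, adjusted p = 0.000115) rose under hypoxia. Of 12 mitochondrial genes linked to HIF, 6 passed as higher and 3 as lower under hypoxia (against 9.74% and 11.6% of all features). BNIP3 (0.91, adjusted p = 0.00037), a receptor for mitophagy, PDK1 (0.98, adjusted p = 0.00264), which inhibits pyruvate dehydrogenase, and LONP1 (0.67, adjusted p = 0.00254), a protease known to degrade COX4I1, were among those that rose.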

How the data were processed

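The authors hybridized Cy3-labelled cDNA to single-colour arrays and deposited intensity values on a linear scale after quantile normalization and RMA, which merges the probes of a target. The labels name an Arraystar array and the paper a NimbleGen array. The selection of the 34487 features was not stated in any source used here. Intensities were log2-transformed and tested with limma 3.58.1 in R 4.3.3 (lmFit and eBayes, two-sided), on 6 arrays for pairwise comparisons and 12 for averages and the interaction, with Benjamini-Hochberg adjustment over all features and no filter. The probe table and RefSeq accessions (GRCh38.p14) named 14675 features. For a gene with several features, the one with the highest mean over 12 arrays was taken. Precision is limited by the number of arrays, and the deposited values carry no background flag.

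The members and lists were chosen with earlier results of these data known. In each comparison up to 10 genes that passed with the largest differences were named, made up to 5 by p, with the isoform pairs, SDHA to SDHD and up to 4 genes of a list. Where 2 genes share a sequence, cross-hybridization could not be judged.

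Same-numbered arrays deviated together between co-culture and cells alone. Their residuals correlated at 0.34, 0.28 and 0.52 (NPM and NPC) and 0.50, 0.27 and 0.54 (HPM and HPC). The numbers, which come from the sample labels, were therefore taken to mark pairs of these arrays. The main fits did not use these pairs, and the replicate block was run only as an alternative. The alternatives were repeated quantile normalization, median centring, a filter at the 25th percentile, 1 fit over all 12 arrays, a block for the replicate number, the methods' t-test, eBayes with trend and robust settings, the mean of the features of a gene, leaving out each array and leaving out the arrays numbered 3. A block within oxygen levels was added after seeing the data. The procedure was tested on simulated data, and figures were drawn with matplotlib 3.10.9.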

Additional observations from a re-analysis of the deposited data

How the results depend on the processing

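Each count of subunit genes that passed was recomputed. With the filter on dim features the counts were 5 in HPC vs NPC, 10 in HPM vs NPM and 4 in HPM vs HPC, against 1, 5 and 0. With all 12 arrays in one fit they were 8 in HPC vs NPC, 12 in HPM vs NPM, 4 in NPM vs NPC and 5 in HPM vs HPC. With trend and robust settings they were 11, 14, 7 and 8 in the same order. The methods' t-test after adjustment gave 2, 3, 0 and 1, and at its unadjusted threshold 21, 22, 27 and 29. With the replicate block the counts were 0 in HPC vs NPC and 2 in HPM vs NPM. Between oxygen levels the residuals of arrays numbered 2 correlated at only 0.03 and 0.01. Those numbered 1 and 3 correlated at 0.24 and 0.38 (HPC and NPC) and at 0.38 and 0.20 (HPM and NPM). In each comparison 4 of 6 arrays correlated best with their own number, so a pairing across oxygen levels was not settled. The block changed no count between co-culture and cells alone by over 1.5 times (24 for the average, and 28 with a block within each oxygen level, against 21).

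Without the arrays numbered 3 the counts were 0 in HPC vs NPC, 0 in HPM vs NPM and 1 for co-culture averaged over oxygen, with 8 arrays in that fit, while 13 of 19 were called for hypoxia averaged over culture. Leaving out each array in turn gave 0 in HPC vs NPC, 1 in HPM vs NPM, 16 to 21 for hypoxia averaged over culture and 11 to 19 for co-culture averaged over oxygen. Quantile normalization repeated, median centring and the mean of the features kept every count within 1.5 times, and the interaction stayed at 0 under each alternative tried. The median differences kept their sign in all alternatives and moved by less than 0.0658, the spread of the arrays within a group. They ranged from -0.28 to -0.17 in HPC vs NPC, -0.17 to -0.14 in HPM vs NPM, -0.23 to -0.16 for hypoxia, -0.37 to -0.29 in NPM vs NPC, -0.28 to -0.22 in HPM vs HPC, -0.30 to -0.24 for co-culture and 0.03 to 0.10 for the interaction. No difference of a named gene changed its sign. Counts within an oxygen level or culture condition thus depend on the choice of fit and filter at 3 arrays a group. The averaged co-culture count depends on the arrays included, with 11 to 19 calls without 1 array and 1 without those numbered 3. Dim features such as COXFA4L2 gave no usable level.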
